A study of Mus musculus with 3 samples.

Results

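The genes described here are the mouse translation initiation and elongation factors, taken as every gene symbol in the deposited table that begins with Eif and a digit from 1 to 6, or with Eef and 1 or 2. This choice gave 64 of the 15554 genes in the table. 4 of the 64 (*Eif2c1* to *Eif2c4*) carry older symbols of the Argonaute genes *Ago1* to *Ago4*, which work in small RNA silencing and not in initiation, so 60 genes are treated as factors. A mean FPKM (fragments per kilobase of transcript and per 1e6 mapped fragments) of at least 1 over the 3 libraries was reached by 56 of the 60 factors and by 9226 genes in all. The other 4 factors were *Eef1a2*, *Eif4e1b*, *Eif4e3* and *Eif2s3y*.

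NIH3T3, an established line of mouse embryonic fibroblasts, was kept in serum-free medium for 24 h, and the cells were then left without a factor (CTRL), stimulated with GDF15 at 100 ng/mL or stimulated with TGF-β at 4 ng/mL, each for 24 h. GDF15 is a secreted member of the TGF-β superfamily, and the study asked whether its effect on fibroblasts resembled that of TGF-β. RNA was prepared 3 times per treatment and pooled, and 1 mRNA library was sequenced per treatment, so no difference below has a replicate check and none has a p-value. All 3 libraries share the serum-free medium and the same cell line, and both stimulated libraries are compared with the same CTRL library.

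Initiation factors bring the small ribosomal subunit, the initiator tRNA and the mRNA together at the start codon. eIF4E binds the cap, eIF4G and the helicase eIF4A complete the cap-binding complex, eIF2 carries the initiator tRNA and eIF3 holds the assembly on the small subunit. Elongation factors then deliver aminoacyl-tRNA (eEF1A), recharge eEF1A with GTP (the eEF1B subunits) and move the ribosome along by a codon (eEF2). Many mRNAs of the translation machinery begin with a C followed by an unbroken run of pyrimidines, the 5′ terminal oligopyrimidine (TOP) tract, and the mTORC1 pathway controls their translation through LARP1 and the eIF4E-binding proteins. 9 factors whose mRNAs are textbook TOP mRNAs (*Eef1a1*, *Eef1b2*, *Eef1d*, *Eef1g*, *Eef2*, *Eif3e*, *Eif3f*, *Eif3h* and *Eif4b*) were compared with the 47 other factors that reached the minimum level.

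All 8 fibroblast markers examined were present, among them *Vim* at 2245, 2018 and 1700 FPKM in CTRL, GDF15 and TGF-β. *Epcam* was listed at 0 in every library, and the other 6 markers of epithelial, endothelial and blood cells stayed below 0.7 FPKM. FPKM summed to between 306603 and 331179 per library. Depth, estimated from the steps between low FPKM values, was between 16.0 and 19.8 (in units of 1e6 fragments) per library, which gave each of the 56 factors between 107 fragments (*Eif4ebp3* in CTRL) and 126352 fragments (*Eef1a1* in GDF15). Counting error was therefore small for the abundant factors, with a standard error of 0.01 on a log2 difference of *Eef1a1*, and large for *Eif4ebp3*, with 0.18 against CTRL after GDF15. These errors cover counting only and not the spread between cultures. In RNA from a whole culture, fewer cells expressing a gene and less of its RNA per cell cannot be told apart.

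The first bases of the messages are shown because the TOP tract is the feature by which the comparison divides the factors. Each line gives 30 bases of the RefSeq promoter table (GRCm38.p6), 5′ to 3′ on the strand of the gene, from 8 bases before the annotated start to 22 bases from the start on. Capitals mark the longest run of C and T in the window. The first 5 are the TOP factors with an entry in the table, and the others are factors outside that group, 3 with a long run and 3 with a short one.
Eef1a1 (chr9:78481703-78481732, minus strand): ccgCCCTCTTCCCgagggtgggggagaacg
Eef2 (chr10:81176623-81176652, plus strand): ggccgggcgttgacgtcagcggTCTCTTCC
Eif3f (chr7:108934407-108934436, plus strand): taggCTCTCTCTCTTTCTCggcaagatggc
Eif4b (chr15:102073765-102073794, plus strand): ccgtcggacgccgcgccaCCCCCTCgcgct
Eef1b2 (chr1:63176823-63176852, plus strand): gcagTTCCgccggaagtagccgaggccttg
Eif2s3x (chrX:94212630-94212659, minus strand): gcaTTTTCCTTTTCTCTCCgagcaagatgg
Eif3l (chr15:79075215-79075244, plus strand): gTTCTTCTTCCgctctctcccacgggcttc
Eif2b5 (chr16:20498809-20498838, plus strand): CTTTCTCTCCCTgcaactacaccttcgcgt
Eif3a (chr19:60790672-60790701, minus strand): cgggcggcggcgCTgccgccgcgagggaat
Eif3c (chr7:126566345-126566374, minus strand): gCTCagagggactcggcagcttagctggtt
Eif5b (chr1:37998002-37998031, plus strand): gggTTCCCacctggccggcggctctactgg

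A C followed by at least 4 pyrimidines, searched on the strand of the gene within 20 bases on either side of the annotated start, was found for 4 of the 5 TOP factors with an entry (*Eef1a1*, *Eef2*, *Eif3f* and *Eif4b*). The other TOP factor with an entry was *Eef1b2*, and *Eef1d*, *Eef1g*, *Eif3e* and *Eif3h* had no entry. The same letters were found for 19 of 43 other factors and for 49.9% of all genes in the table, so short runs of this kind are common near annotated starts. A match describes the letters near an annotated start and does not show where these cells begin the message. The grouping used below therefore rests on the textbook list and not on this search.

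Levels of the factors covered a wide range in every library. *Eef1a1*, the carrier of aminoacyl-tRNA, was the most abundant factor, with 3691 FPKM in CTRL, 3557 with GDF15 and 3341 with TGF-β, and *Eef2*, the translocase, followed at 1168, 1142 and 994. FPKM is per length, so these levels can be set side by side: *Eef1a1* stood at 3.16, 3.11 and 3.36 times the level of *Eef2*. *Eef1a1* alone made up 39.0%, 39.6% and 38.5% of the summed FPKM of all 60 factors, and the 9 TOP factors made up 70.6%, 70.3% and 67.8%. The 60 factors together held 2.86%, 2.93% and 2.80% of all FPKM.

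**Figure D1:**
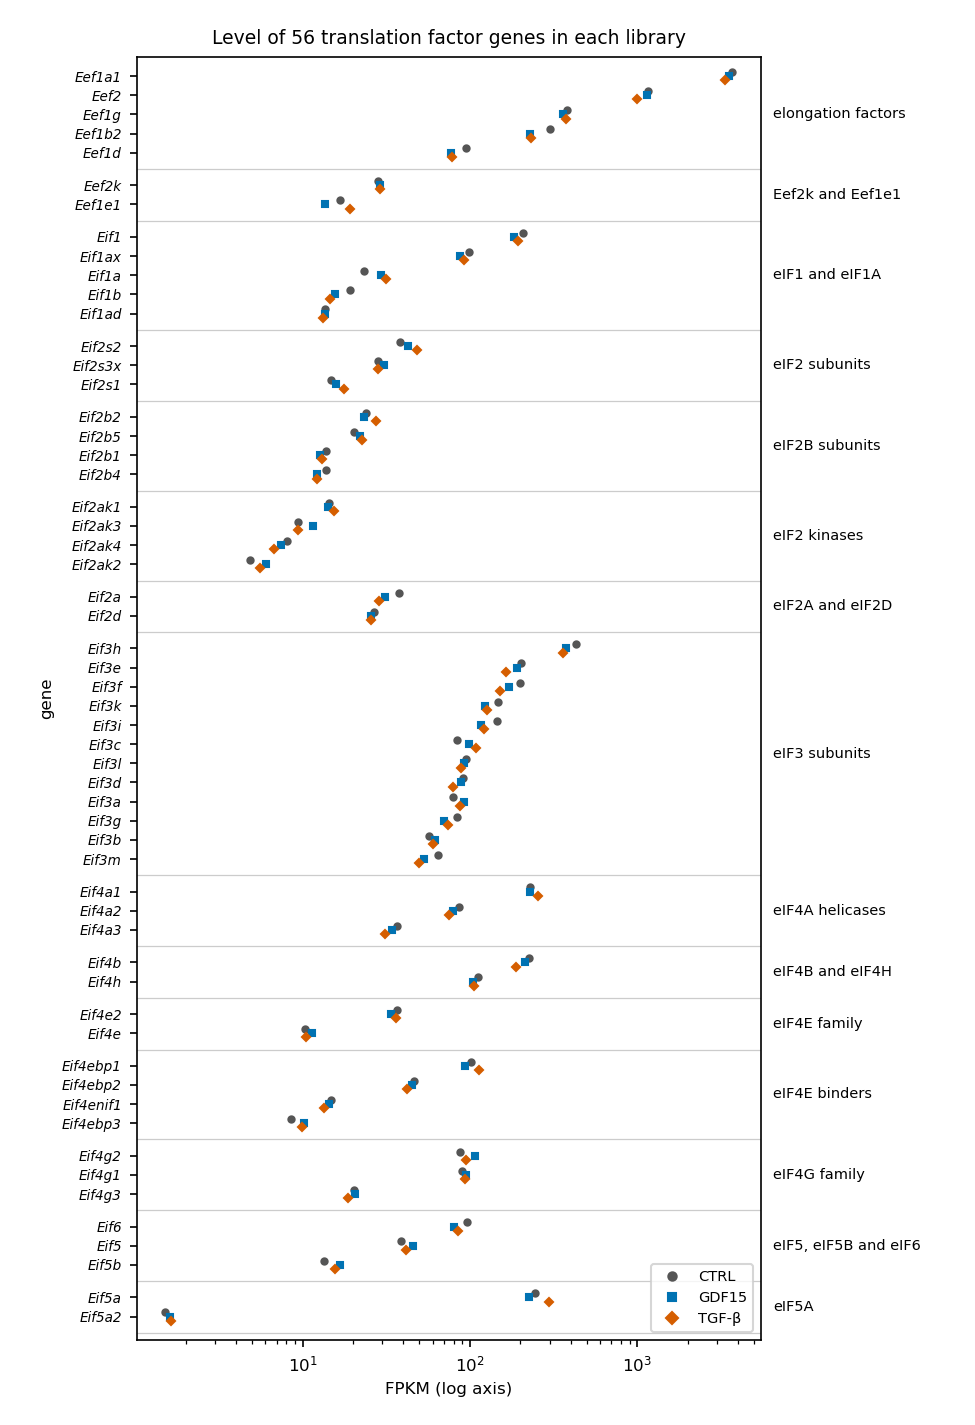
Level of each factor with a mean FPKM of at least 1 (FPKM, log axis) in the CTRL, GDF15 and TGF-β libraries, 1 point per library, ordered by role. *Eef1a1* and *Eef2* stand above all other factors, *Eif5a2* stands lowest, and for nearly every factor the 3 points lie close together compared with the distance between factors.

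Next to *Eef1a1* and *Eef2*, *Eif3h* had 428, 376 and 362 FPKM in CTRL, GDF15 and TGF-β, and *Eef1g* had 379, 362 and 378. *Eif5a*, which relieves stalled ribosomes and carries the modified lysine hypusine, had 246, 226 and 299 FPKM. At the other end of the 56 factors was *Eif5a2*, the paralog of *Eif5a*, with 1.51, 1.61 and 1.65 FPKM. Next above it came *Eif2ak2* and *Eif2ak4*, kinases of eIF2. *Eif5a* was 163, 141 and 181 times as abundant as *Eif5a2*. The tissue-restricted paralog *Eef1a2* had at most 0.0497 FPKM, about 2 fragments, and *Eif4e1b* had at most 0.0815. *Eif4e3*, a paralog of the cap-binding protein, and the Y-linked *Eif2s3y* were listed at 0 in all 3 libraries.

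The changes below are differences of log2(FPKM + 1), and a gene is said to have risen or fallen when FPKM + 1 is over 25% higher in one library than in the other, that is when its change is over 0.32 on this scale in either direction. The added 1 makes this rule stricter than the same percentage of FPKM itself, most of all for low genes, and the words risen, fallen and past the fold refer to FPKM + 1 throughout. Few factors were past that fold after GDF15. Only *Eif1a*, which helps scanning and start codon choice, rose among the 56 factors (0.33), and only *Eef1b2*, the exchange factor that recharges eEF1A, fell (-0.40). Over all 9226 genes 6.53% rose and 10.0% fell by this rule, which is a larger share than among the factors in each direction. *Eif5b* (0.31) and *Eif3i* (-0.31) lay just short of the fold. In FPKM itself *Eif5b* and *Eif2ak2* were also over 25% above CTRL after GDF15, at 126% of CTRL each. No factor passed 2-fold, the criterion of the study, which 0.477% of all genes passed.

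After TGF-β more factors were past the same fold, but in each direction they were again a smaller share than among all genes. *Eif1a* (0.43), *Eif3c* (0.36) and *Eif2s2* (0.32), 3 of 56, rose, beside 6.80% of all genes. *Eif3f* (-0.40), *Eif1b* (-0.39), *Eif2a* (-0.38), *Eif3m* (-0.37) and *Eef1b2* (-0.37), 5 of 56, fell, beside 14.3% of all genes. *Eif2s2* lay just inside the fold, and *Eif3e* (-0.30) and *Eif5a* (0.28) just outside. No factor passed 2-fold here either, beside 1.48% of all genes.

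**Figure D2:**
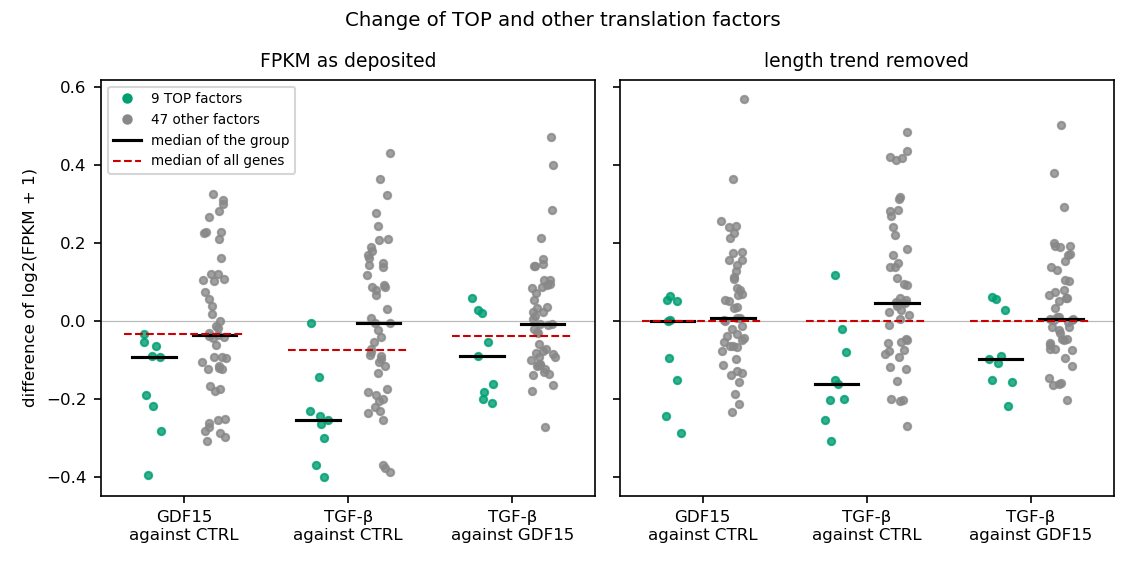
Change of each factor (difference of log2(FPKM + 1)) in the 3 comparisons, as deposited (left) and with the length trend removed (right), with 1 point per factor, a bar at the median of each group and a dashed line at the median of all genes. As deposited, all 9 TOP factors lie below 0 in both comparisons with the shared CTRL library, with medians of -0.09 and -0.25, while the 47 other factors spread on both sides of 0 with medians of -0.04 and -0.01.

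As deposited, the 9 TOP factors were lower than CTRL in both stimulated libraries. After GDF15 all 9 were lower, from -0.40 to -0.03 with a median of -0.09, where 55.6% of all genes were lower. Of the 47 other factors 27 were lower, with a median of -0.04, and the median of all genes was -0.03. After TGF-β all 9 TOP factors were again lower, from -0.40 to -0.01 with a median of -0.25, where 62.8% of all genes were lower. The other factors then had a median of -0.01 with 25 of 47 lower, and all genes had a median of -0.07. The medians of the groups thus differed by -0.06 after GDF15 and by -0.25 after TGF-β. No spread between replicate libraries is available against which to judge these differences. Because both comparisons use 1 CTRL library, a high value in that library would lower both, and the direction in the second is not independent of the first.

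Among the TOP factors the elongation factors differed from each other. The 2 most abundant, *Eef1a1* and *Eef2*, were lower by small amounts after GDF15 (-0.05 and -0.03) and by more after TGF-β (-0.14 and -0.23). *Eef1b2* had 301 FPKM in CTRL, 228 with GDF15 and 233 with TGF-β, and so stood apart in CTRL with the stimulated libraries close together. *Eef1d*, another exchange subunit, showed the same order of levels, with 94.2, 77.2 and 78.4 FPKM and changes of -0.28 and -0.26. *Eef1g*, the subunit that holds the exchange complex together, had changes of only -0.06 and -0.01, and its 3 libraries were nearly level. The 3 subunits of one exchange complex therefore did not share a change of one size.

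Of the TOP initiation factors, *Eif4b*, the partner of the eIF4A helicase, had 226, 212 and 189.7 FPKM in CTRL, GDF15 and TGF-β, with changes of -0.09 and -0.25. *Eif3e* had 203, 190.2 and 164 FPKM, with changes of -0.09 and -0.30. *Eif3f* had 200.2, 172 and 151 FPKM, with changes of -0.22 and -0.40, and *Eif3h* had changes of -0.19 and -0.24. In all 4 the TGF-β library was lowest, CTRL was highest and GDF15 lay between.

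The comparison between the stimulated libraries does not use CTRL. There the TOP factors were lower in TGF-β than in GDF15 for 6 of 9, with a median of -0.09 and a range from -0.21 to 0.06, where 60.3% of all genes were lower and their median was -0.04. The other factors had a median of -0.01, with 25 of 47 lower. The group medians thus differed by -0.08.

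Transcript length and GC content moved with these changes. Over all genes with a known length the change after GDF15 was larger for longer transcripts (Spearman's rho = 0.48 across 9193 genes, which share 1 pair of libraries), and over the 56 factors rho was 0.56. After TGF-β the values were 0.24 and 0.31, and for TGF-β against GDF15 they were -0.30 and -0.27. Within the 9 TOP factors rho was -0.05 after GDF15 and -0.13 after TGF-β, so the trend was not seen inside that group. With GC content, rho over all genes was -0.45 after GDF15 and -0.31 after TGF-β, and over the 56 factors -0.28 and -0.25. TOP factors had a median length of 1939 bases and the other factors of 2726 bases, by the longest coding transcript in GENCODE M21. That transcript need not be the one these cells express, and every value with the length trend taken off depends on this choice. When the running median of all genes of like length was taken off, the median of the TOP factors after GDF15 became 0.00 with 4 of 9 lower, beside 49.9% of all genes, and that of the others became 0.01. With GC content taken off as well, these medians after GDF15 were -0.07 with 5 of 9 lower and 0.03, so that the difference between the groups was -0.10 and larger than as deposited. After TGF-β the median of the TOP factors with the length trend alone taken off became -0.16 with 8 of 9 lower, and that of the others became 0.05. *Eif1a* (0.36) and *Eif4ebp3* (0.57) were past the fold higher after GDF15 with the length trend taken off and no factor was past it lower, beside 6.04% and 5.04% of all genes. After TGF-β *Eif1a* (0.49), *Eif3c* (0.44), *Eif5a* (0.42), *Eif2s2* (0.42) and *Eif4ebp3* (0.41) were past it higher and again none lower, beside 9.57% and 8.50%. With the trend by GC content taken off as well, 1 factor was past the fold higher after GDF15, *Eif4ebp3* (0.61), beside 4.87% of all genes. By the same fold 2 were lower, *Eif1ax* (-0.37) and *Eef1b2* (-0.34), beside 4.23%. *Eif1a* then had 0.23 after GDF15 and no longer passed the fold. After TGF-β 6 were higher and 1 lower (beside 8.90% and 7.56%). With the length trend alone taken off, *Eef1b2* had -0.29 and -0.26 after GDF15 and TGF-β, so that it no longer passed the fold in either comparison. *Eif3f* had -0.15 and -0.31 and no longer passed it after TGF-β, and *Eef1g* had 0.05 and 0.12. With GC content taken off as well, *Eef1b2* had -0.34 and -0.29 and *Eif3f* had -0.16 and -0.30. Why length and GC content moved with the changes was not tested.

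**Figure D3:**
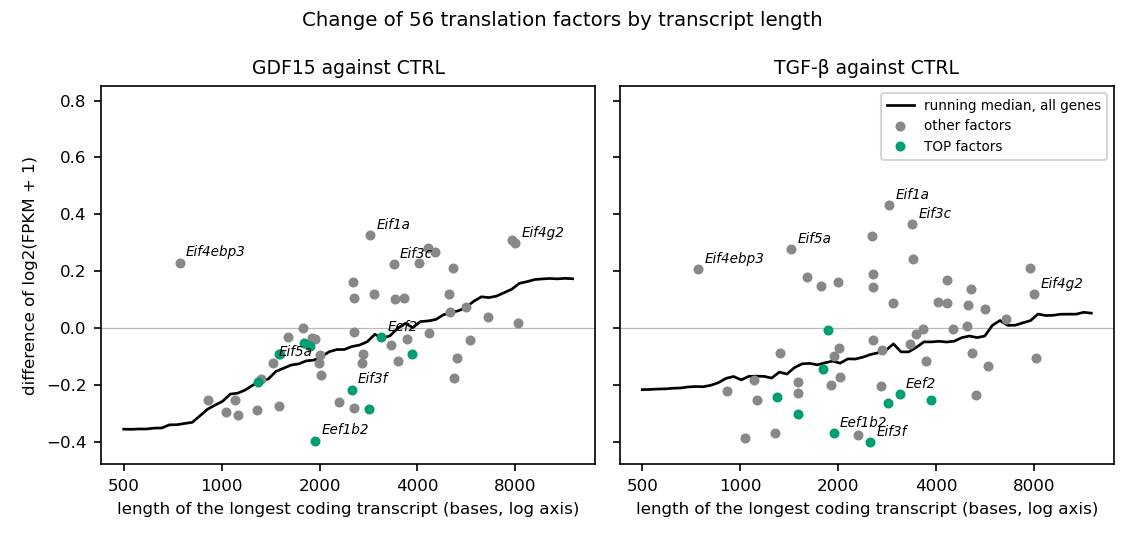
Change of the 56 factors (difference of log2(FPKM + 1) from CTRL) against the length of the longest coding transcript (bases, log axis), after GDF15 and after TGF-β, with the running median of all genes as a line. After GDF15 the line climbs with length and *Eef2* lies on it while *Eef1b2* lies well below, and after TGF-β 8 of the 9 TOP factors lie below the line.

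Other TOP mRNAs and the ribosomal proteins were read beside the factors. The 76 ribosomal protein genes, with a median length of 941.5 bases, had median changes of -0.42 after GDF15 and -0.26 after TGF-β, which became -0.17 and -0.09 when the length trend was taken off. Of 10 further TOP mRNAs none rose after either stimulus, 2 fell after GDF15 and 1 fell after TGF-β, beside 6.53% and 6.80% of all genes that rose and 10.0% and 14.3% that fell. *Fau*, which encodes a ubiquitin-like protein fused to a ribosomal protein, fell after both stimuli (-0.51 and -0.33), *Naca*, a chaperone of nascent chains, fell after GDF15 (-0.34) and lay just short of the fold after TGF-β (-0.32), and the list had medians of -0.19 and -0.10 that became 0.00 and 0.02 with the length trend taken off. The ribosomal protein genes thus had their lower median after GDF15 and the TOP factors after TGF-β.

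eIF3, the scaffold of the initiation complex, did not change as 1 body. *Eif3a*, *Eif3b* and *Eif3c*, its large subunits, were higher than CTRL after both stimuli, and the other 9 of 12 subunits were lower. Over all genes 55.6% were lower after GDF15 and 62.8% after TGF-β. *Eif3c* had 84.2 FPKM in CTRL, 98.5 with GDF15 and 109 with TGF-β, which is a change of 0.22 and 0.36. *Eif3a* had 79.3, 91.9 and 87.4 FPKM and *Eif3b* had 56.7, 61.7 and 60.3, so that CTRL was the lowest library for all 3. *Eif3m* had 64.9, 53.0 and 49.96 FPKM and fell after TGF-β, as *Eif3f* did. *Eif3i* and *Eif3g*, small subunits that bind *Eif3b*, had changes of -0.31 and -0.25 after GDF15 and -0.25 and -0.18 after TGF-β, and in both the GDF15 library was lowest. *Eif3k* showed -0.25 and -0.22 in the same order, while *Eif3d*, which can bind the cap, showed -0.04 and -0.20, and *Eif3l* -0.04 and -0.10.

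Within the complex the changes also moved with transcript length. *Eif3a* has the longest transcript of the 12 (5125 bases) and *Eif3k* the shortest (909 bases), and rho between length and change was 0.86 after GDF15 and 0.50 after TGF-β over the 12 subunits. The median change of the subunits was -0.14 after GDF15 and -0.21 after TGF-β, and with the length trend taken off it was 0.04 and -0.06. In that case 4 and 8 of the 12 were lower than CTRL, beside 49.9% of all genes. *Eif3c* then had 0.24 and 0.44, and *Eif3i* had -0.08 in both. The 3 subunits in the TOP group then had 0.06, -0.15 and 0.00 after GDF15 and -0.16, -0.31 and -0.08 after TGF-β for *Eif3e*, *Eif3f* and *Eif3h*. With all 12 subunits counted as TOP factors, the group of 18 had medians of -0.09 and -0.23, beside -0.02 and 0.00 for the 38 factors outside it. With the length trend taken off, the medians of the 18 became 0.02 and -0.08, and those of the 38 became 0.00 and 0.05, so that the wider group was no longer the lower of the pair after GDF15.

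**Figure D4:**
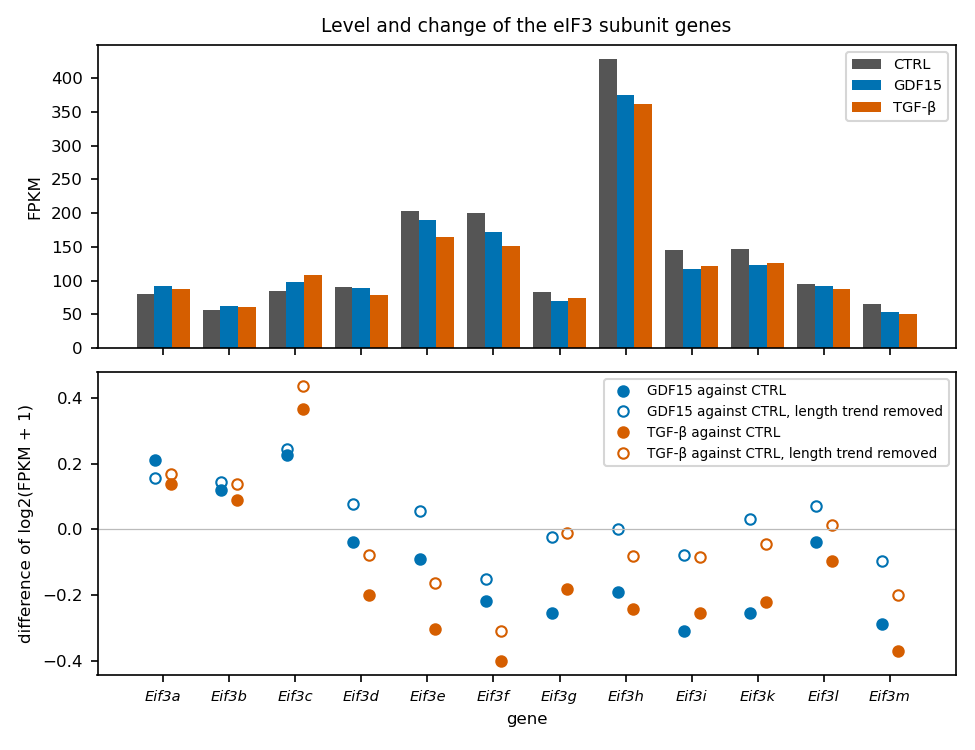
Bars show the level of the 12 eIF3 subunits in the CTRL, GDF15 and TGF-β libraries (FPKM, upper panel), and circles show the change against CTRL (difference of log2(FPKM + 1), lower panel), filled as deposited and open with the length trend removed. CTRL is the lowest bar for *Eif3a*, *Eif3b* and *Eif3c* and the highest for the other 9, *Eif3h* stands highest in every library, and the open circles of the short subunits such as *Eif3k* and *Eif3i* lie nearer to 0 than the filled ones.

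The subunits of eIF2, which delivers the initiator tRNA, were close to or above CTRL. *Eif2s2*, the beta subunit, had 38.2 FPKM in CTRL, 42.9 with GDF15 and 48.1 with TGF-β, a change of 0.16 and 0.32. *Eif2s1*, the alpha subunit that the eIF2 kinases phosphorylate, had 14.7, 15.9 and 17.6 FPKM, a change of 0.10 and 0.24. In both the TGF-β library was highest and CTRL lowest. *Eif2s3x*, the gamma subunit, had 28.3, 30.6 and 28.2 FPKM. The 4 measured subunits of eIF2B, the exchange factor that reloads eIF2 with GTP, had changes between -0.17 (*Eif2b4*) and 0.18 (*Eif2b2* after TGF-β), and none passed the fold. *Eif2b1* and *Eif2b5* lay inside that range after both stimuli. Over all genes 6.53% rose and 10.0% fell after GDF15, and 6.80% and 14.3% after TGF-β, so none of 4 does not set them apart. With the length and GC trends taken off, *Eif2b2* was past the fold after TGF-β (0.38). *Eif2b3* was not analysed here.

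*Eif2a*, a separate protein that can deliver initiator tRNA and is not a subunit of eIF2, had 37.6, 31.2 and 28.7 FPKM and fell after TGF-β. *Eif2d*, another non-canonical carrier, had 26.8, 25.6 and 25.7 FPKM.

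The 4 kinases that phosphorylate eIF2 differed in direction. *Eif2ak2* (PKR, which senses double-stranded RNA) had 4.83 FPKM in CTRL, 6.08 with GDF15 and 5.55 with TGF-β. *Eif2ak3* (PERK, the kinase of the endoplasmic reticulum) had 9.40, 11.5 and 9.37, so that only the GDF15 library stood apart, with a change of 0.27. *Eif2ak4* (GCN2, which senses uncharged tRNA) had 8.11, 7.47 and 6.73, and *Eif2ak1* (HRI, which responds to heme) had 14.5, 14.3 and 15.4. None passed the fold in any comparison, although *Eif2ak2* with GDF15 stood at 126% of CTRL in FPKM itself, and the counting error of the differences was 0.06 to 0.11. Of all genes 3.91% to 14.3% passed it, by comparison and direction, so none of 4 does not set the kinases apart.

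Of the 6 measured genes of the response to eIF2 phosphorylation, 1 rose and 1 fell after GDF15 (beside 6.53% and 10.0% of all genes), and 2 rose and 1 fell after TGF-β (beside 6.80% and 14.3%). *Trib3*, a pseudokinase induced by ATF4, had 13.9 FPKM in CTRL, 19.3 with GDF15 and 29.9 with TGF-β, and rose after both stimuli (0.45 and 1.05). *Atf4*, the transcription factor of the response, had 156, 173 and 214 FPKM and rose after TGF-β (0.45), with 0.15 after GDF15. *Ddit3* (CHOP), a target of ATF4, went the other way with 71.8, 56.8 and 47.8 FPKM and fell after both (-0.33 and -0.58). The remaining genes *Ppp1r15a*, *Ppp1r15b* and *Impact* passed the fold in neither comparison. In *Trib3* and *Atf4* the TGF-β library was highest, and in *Ddit3* it was lowest.

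The cap-binding complex eIF4F was close to level. *Eif4e*, the cap-binding subunit, had 10.4, 11.4 and 10.4 FPKM, and its paralog *Eif4e2* had 36.5, 33.6 and 36.0. The helicase *Eif4a1* had 229.8, 230.0 and 255 FPKM and *Eif4a2* had 86.2, 79.1 and 74.6, so the ratio of *Eif4a1* to *Eif4a2* was 2.67, 2.91 and 3.41. TGF-β was thus the highest library for one helicase and the lowest for the other, with changes of 0.15 and -0.21 that are both short of the fold. *Eif4g1*, the large scaffold of eIF4F, had 89.6, 94.4 and 94.0 FPKM. *Eif4g2*, a scaffold that lacks the binding site for eIF4E, had 87.2, 108 and 94.8, with a change of 0.30 after GDF15 that became 0.16 with the length trend taken off. *Eif4g3* had 20.3, 20.5 and 18.8 FPKM.

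The inhibitors of eIF4E were more abundant than eIF4E itself at the RNA level. *Eif4ebp1*, *Eif4ebp2* and *Eif4ebp3*, which mTORC1 phosphorylates to release eIF4E, summed to 15.1, 13.1 and 15.9 times the FPKM of *Eif4e* in CTRL, GDF15 and TGF-β. *Eif4ebp1* had 102, 93.4 and 114 FPKM and was the most abundant of the 3 in every library. *Eif4ebp2* had 46.3, 44.9 and 42.1. *Eif4ebp3* had 8.51, 10.2 and 9.99, below *Eif4e* in every library, on 107 to 150 estimated fragments. *Eif4ebp1* was lowest in GDF15 and highest in TGF-β, a difference of 0.29 between the stimulated libraries.

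Among the factors of scanning and subunit joining, *Eif1a* had 23.3 FPKM in CTRL, 29.4 with GDF15 and 31.7 with TGF-β, with CTRL well below the others. Its near-identical copy *Eif1ax* had 98.3, 86.9 and 92.4, so CTRL was highest there, and how reads common to both were assigned is not given in the sources used here. *Eif1b*, a paralog of the start codon factor *Eif1*, had 19.3, 15.5 and 14.5 FPKM and fell after TGF-β, while *Eif1* had changes of -0.18 and -0.09. *Eif5b*, the GTPase of subunit joining, had 13.4, 16.9 and 15.7 FPKM, with changes of 0.31 and 0.21 that became 0.17 and 0.18 with the length trend taken off. *Eif5*, which makes eIF2 hydrolyse its GTP, had 38.8, 45.7 and 41.4 FPKM, and *Eif6*, which keeps the ribosomal subunits apart, had 96.8, 79.9 and 84.7. In *Eif5* and *Eif5b* CTRL was the lowest library and GDF15 the highest, and in *Eif6* the order was the reverse. The helicase *Eif4a3* of the exon junction complex, *Eif4h*, *Eif4enif1* and *Eif1ad* had changes between -0.23 and -0.01. *Eef1a1*, *Eif5a* and *Eif4a1* also have processed copies in the genome, so their levels carry the same uncertainty.

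Between the stimulated libraries 2 of 56 factors were past the fold higher in TGF-β, beside 3.91% of all genes, and 0 were lower by that fold, beside 5.03%. They were *Eef1e1* (0.47), a scaffold protein of the multi-tRNA synthetase complex, and *Eif5a* (0.40). *Eef1e1* had 16.7 FPKM in CTRL, 13.6 with GDF15 and 19.2 with TGF-β. For both genes GDF15 was the lowest library and TGF-β the highest, with CTRL between. No factor passed 2-fold, beside 0.163% of all genes. *Eef2k*, the kinase that inactivates eEF2, was nearly level at 28.3, 29.2 and 29.0 FPKM.

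Enzymes that modify eIF5A and eEF2 did not pass the fold in either comparison with CTRL, with *Dph1*, of diphthamide synthesis, closest to it at -0.31 after GDF15 (9.46 and 7.46 FPKM). The 6 measured enzymes of hypusine and diphthamide synthesis had median changes of -0.11 and -0.10, which became 0.04 and 0.02 with the length trend taken off, and *Dhps*, which starts hypusine synthesis, had 27.9, 26.1 and 26.1 FPKM. The 8 poly(A)-binding and eIF4F partners had medians of 0.04 and -0.06, which became 0.08 and 0.03 with the length trend taken off, and none passed the fold. Over all genes 6.53% rose and 10.0% fell after GDF15, and 6.80% and 14.3% after TGF-β, so that none of 6 and none of 8 set neither list apart. *Larp1*, which binds TOP mRNAs, had 26.6, 27.2 and 28.0 FPKM. Of 11 genes of the mTORC1 pathway none passed the fold after GDF15 and 1 rose after TGF-β, a share near the 6.80% of all genes. It was *Ddit4*, an inhibitor of mTORC1, with 19.6, 21.95 and 27.7 FPKM and a change of 0.15 after GDF15 and 0.47 after TGF-β. *Mtor* itself had 6.71, 7.09 and 6.22 FPKM. The 11 genes had medians of -0.07 and -0.09, which became -0.13 and -0.11 with the length trend taken off. In that case 9 and 8 of the 11 were lower than CTRL, beside 49.9% of all genes. With GC content taken off as well, the medians were -0.06 and -0.08.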

How the data were processed

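Poly(A) RNA of NIH3T3 cells was sequenced as 1 stranded library per treatment from pooled RNA. The authors calculated FPKM with Cufflinks and deposited them for protein coding genes reviewed in UniProt. The submitters' processing notes name TopHat 1.3.2, Bowtie 0.12.9, Cufflinks 2.0.2 and the mm10 build, and whether strand was used in counting is not given in the sources used here. These values were used without rescaling, and columns were matched to treatments by the treatment in their names.

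Changes are differences of log2(FPKM + 1) for genes that average 1 FPKM or more. With 1 library per treatment no test is possible, so counts past the fold (FPKM + 1 over 25% higher in one library than in the other) are set beside the share of all genes past the same fold. Fragments are estimates from depth, and intervals from them cover counting error only. GENCODE M21 (GRCm38, the same build as mm10) gave gene positions, transcript lengths and GC content for 15473 of 15554 genes, of which 748 were found through an older name. Of the 64 members, 51 had an entry in the RefSeq promoter table. Length trends are running medians over 501 genes, and the length and GC trends were taken off in that order.

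The members and the lists were chosen with earlier results of these data known. The genes named are the 9 TOP factors, all eIF3 subunits, the 5 largest rises and falls by each stimulus, the paralog groups, the subunits of eIF2 and eIF2B, the eIF2 kinases, *Eef2k*, list members past the fold and factors at 0. The others were named after their values were seen. Alternatives were pseudocounts of 0.5 and 0.1, no minimum and a minimum of 10 FPKM, upper quartile scaling, removal of the length trend or of the length and GC trends, and a wider TOP group with all eIF3 subunits. Changes and depth estimates were tested on simulated data. Scripts ran in Python 3.11.15 (numpy 2.4.6, pandas 2.3.3, matplotlib 3.10.9).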

Additional observations from a re-analysis of the deposited data

Results flagged for a closer look

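For 2 of 56 factors the GDF15 and TGF-β libraries lay on opposite sides of CTRL, with FPKM + 1 over 25% higher in TGF-β than in GDF15. Over all genes 3.91% were higher in TGF-β by the same fold, so the number of factors is near that background. As deposited, no change of either factor against CTRL passed the fold. *Eef1e1* was lower after GDF15 (-0.28) and higher after TGF-β (0.19), a difference of 0.47 on the log2(FPKM + 1) scale, on 687 to 786 estimated fragments per library. *Eif5a* was lower after GDF15 (-0.12) and higher after TGF-β (0.28), a difference of 0.40 on 5994 to 6866 fragments. With the length trend taken off the differences were 0.50 and 0.38. The change of *Eif5a* was then 0.04 after GDF15 and 0.42 after TGF-β, which is past the fold. The difference between the stimuli was not tested, because each has 1 library, and both comparisons share CTRL.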

How the results depend on the processing

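No paired analysis was possible because the study has a single library for every treatment, which also means that no fit without a library could be made. Of 162 values of group medians, differences of medians and counts under the alternatives, 143 stayed within 0.1 of the median or 1.5 times the count and 19 moved. The count of factors past the fold higher after GDF15, 1 as reported, was 3 with a pseudocount of 0.1, 3 with upper quartile scaling and 2 with the length trend removed. The count past the same fold lower after GDF15, also 1, was 0 with the length trend removed and 2 with the length and GC trends removed. After TGF-β the 5 factors lower became 2 with upper quartile scaling, 0 with the length trend removed and 1 with the length and GC trends removed, and the 3 higher became 5 and 6 under the last 2 of these. The median of the TOP factors after TGF-β moved from -0.25 to -0.15 with the length and GC trends removed. The difference between TOP and other factors stayed between -0.25 and -0.20 after TGF-β and between -0.10 and -0.01 after GDF15 with 1 choice changed at a time. With the wider TOP group and the length trend removed together, its median was 0.018 after GDF15 and -0.079 after TGF-β, and the differences from the factors outside it were 0.013 and -0.13. With the length and GC trends removed these medians were 0.054 and -0.043 and the differences 0.052 and -0.096, so both combinations turned the sign after GDF15. These combinations, keeping the Argonaute genes in and leaving the regulators of the factors out were chosen after seeing the data. Without the regulators, which include *Eef1e1*, the count higher in TGF-β than in GDF15 was 1 and not 2. Of 720 values of 48 single factors, 16 moved by more than the scaled median absolute deviation of all genes (0.22, 0.23 and 0.16 for GDF15 and TGF-β against CTRL and TGF-β against GDF15), among them *Eif4ebp3* after GDF15, which went from 0.23 to 0.57 with the length trend removed. The cause of these moves was not tested.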

Other observations

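The machinery that ends translation and that of the mitochondrion held 1 gene past the fold against CTRL. Of the 7 measured genes of termination, recycling and rescue, *Abce1*, the ATPase that splits the ribosome after termination, had 21.7 FPKM in CTRL, 27.6 with GDF15 and 26.9 with TGF-β, and rose after GDF15 (0.34, with 0.30 after TGF-β). *Etf1*, the release factor, had 32.2, 37.3 and 36.2 FPKM, and no other gene of the 7 passed the fold, beside 6.53% of all genes that rose and 10.0% that fell after GDF15, and 6.80% and 14.3% after TGF-β. The list had median changes of 0.05 and 0.07, which became 0.15 and 0.21 with the length trend taken off. Then 1 and 0 of the 7 were lower than CTRL, beside 49.9% of all genes. With GC content taken off as well, the medians were 0.04 and 0.15. The 9 mitochondrial translation factors had a median of -0.04 after each stimulus (0.03 and 0.01 with the length trend taken off) and none passed the fold. *Tufm*, the mitochondrial counterpart of eEF1A, had 27.7, 25.6 and 27.8 FPKM, so that its level was close to that of *Eef2k* and far below that of *Eef1a1*.

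The Argonaute genes listed under the older symbols *Eif2c1*, *Eif2c2* and *Eif2c3* had 21.6, 19.0 and 4.65 FPKM in CTRL and were higher after GDF15 by 0.16, 0.17 and 0.19. Their longest transcripts run from 7227 to 15595 bases, and with the length trend taken off the changes were 0.04, 0.00 and 0.01. After TGF-β they stood at -0.03, -0.01 and 0.11. *Eif2c4* had at most 0.102 FPKM.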
